A study of Mus musculus with 3 samples.

Results

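Genes for collagens, laminins, integrins, fibulins, fibrillins and the matrix-cleaving Adamts and Mmp proteases were drawn from a list of Isl1-bound regions by their gene symbols. A peak was taken when the symbol of its assigned gene began with Col and a digit, Lama, Lamb, Lamc, Itga, Itgb, Adamts, Fbln, Fbn or Mmp and a digit, and repeated identical lines were counted once. This left 107 of 14082 distinct peaks and 70 of 9313 gene names. By class there were 29 collagen peaks, 11 laminin peaks, 20 integrin peaks, 27 peaks of Adamts and Adamts-like genes, 3 of fibulins and fibrillins and 13 of Mmp genes. The other 4 peaks belonged to Col4a3bp and Itgbl1, whose symbols begin in the same way although their products are a ceramide transporter and an integrin-related protein outside these classes.

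Isl1, a transcription factor of the LIM-homeodomain family that marks progenitors of the second heart field, was pulled down from crosslinked chromatin with the monoclonal antibody 39.4D5 of the Developmental Studies Hybridoma Bank, and the recovered DNA was sequenced (ChIP-Seq). All chromatin came from 1 reporter line, E14 Tg(Nkx2-5-EmGFP) mouse embryonic stem cells, which carry a green fluorescent protein transgene under Nkx2-5 control. The cells were differentiated in culture into cardiac progenitor cells (CPCs) and harvested at day 5. There were 2 Isl1 ChIP replicates and 1 input without antibody, no group with reduced Isl1, and 1 peak list for both replicates together. The list gave positions, distances and gene names but no read numbers, so depth is unknown, no replicate error can be given, and the absence of a peak does not show that Isl1 was absent. Every interval below is a 95% Wilson interval that covers counting error within this list only.

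The extracellular matrix surrounds cells with a mesh of secreted proteins. Fibrillar collagens build tension-bearing fibres, while collagen IV and the laminins, each laminin a trimer of an alpha, a beta and a gamma chain, form the basement membrane sheet on which epithelia and cardiomyocytes rest. Integrins are receptors of an alpha and a beta subunit that bind these proteins and connect them to the actin cytoskeleton, and Mmp and Adamts enzymes cut and mature the matrix. Second heart field progenitors lie in an epithelium on such a matrix and leave it as they enter the heart tube.

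Examples of 3 kinds of sequence under the peaks are given here because the position of a peak mostly went along with its kind. Of the 41 peaks within 1 kb of a transcription start site (TSS), 40 lay on single-copy promoter sequence with at least 12 CG dinucleotides in the central 200 bp, and the exception was a multi-copy peak of Itga1. Another 12 single-copy peaks lay farther away, some of them poor in CG, as at Col4a6 with 1 CG dinucleotide and at the distal peak of Col12a1 with 0, and are not shown. The 150 bases directly upstream of the TSS of 6 genes with such a promoter peak, which include a laminin chain, the integrin subunits for beta 1 and alpha 5, a fibrillar collagen and one protease of each family, are given 5′ to 3′ from mm9 (NCBIM37) with the TSS of GENCODE, and CG dinucleotides are in capitals.
Lama1, chr17:68046455-68046604, plus strand: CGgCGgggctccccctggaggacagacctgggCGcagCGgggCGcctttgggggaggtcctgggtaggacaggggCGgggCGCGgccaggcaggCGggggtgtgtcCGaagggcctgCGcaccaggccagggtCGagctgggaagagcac
Itgb1, chr8:131209404-131209553, plus strand: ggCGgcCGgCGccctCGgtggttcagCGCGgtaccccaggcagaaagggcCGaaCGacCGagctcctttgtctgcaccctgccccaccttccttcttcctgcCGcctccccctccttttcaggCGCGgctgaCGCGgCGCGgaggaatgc
Itga5, chr15:103197195-103197344, minus strand: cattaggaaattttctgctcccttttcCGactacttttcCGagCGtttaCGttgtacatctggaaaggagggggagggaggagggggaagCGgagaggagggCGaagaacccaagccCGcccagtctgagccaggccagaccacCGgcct
Col5a1, chr2:27741795-27741944, plus strand: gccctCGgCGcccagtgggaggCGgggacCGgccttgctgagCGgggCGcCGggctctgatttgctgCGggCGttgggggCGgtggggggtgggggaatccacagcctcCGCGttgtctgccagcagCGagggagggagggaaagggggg
Adamts2, chr11:50415436-50415585, plus strand: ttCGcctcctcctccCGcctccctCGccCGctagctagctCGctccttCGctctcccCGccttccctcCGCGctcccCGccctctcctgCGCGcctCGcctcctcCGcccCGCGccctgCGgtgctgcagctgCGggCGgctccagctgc
Mmp24, chr2:155600928-155601077, plus strand: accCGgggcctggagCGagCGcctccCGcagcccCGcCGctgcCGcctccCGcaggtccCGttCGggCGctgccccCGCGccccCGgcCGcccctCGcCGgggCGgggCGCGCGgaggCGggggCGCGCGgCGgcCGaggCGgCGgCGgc
They held from 8 CG dinucleotides at Itga5 to 30 at Mmp24.

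A further kind was tandem sequence, in which a short unit followed itself many times. The central 120 bases of 2 peaks of this kind are printed from mm9 on the plus strand, and capitals mark the first stretch of the length that gave the best match of the sequence with itself.
Itgb3, chr11:104609297-104609416, plus strand: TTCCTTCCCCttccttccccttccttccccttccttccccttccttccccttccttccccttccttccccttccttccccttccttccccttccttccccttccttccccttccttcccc
Col26a1, chr5:137334965-137335084, plus strand: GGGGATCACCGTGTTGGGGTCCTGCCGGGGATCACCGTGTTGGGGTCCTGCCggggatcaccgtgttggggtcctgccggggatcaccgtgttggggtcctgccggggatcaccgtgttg
The best shift was 10 bases at Itgb3 and 52 at Col26a1, and the central 200 bp matched themselves at that shift over 100% and 98.6% of positions. At Col26a1 the stretch in capitals is itself made of a shorter repeated unit, so 52 bases is not the shortest unit there.

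In the last kind, the peaks of unrelated genes shared one long sequence that occurs throughout the genome. A 120-base stretch at the centre of an Itgbl1 peak and its closest match in a peak of 4 classes are printed, with capitals where a base is not identical to the Itgbl1 stretch.
Itgbl1, chr14:124122653-124122772, plus strand: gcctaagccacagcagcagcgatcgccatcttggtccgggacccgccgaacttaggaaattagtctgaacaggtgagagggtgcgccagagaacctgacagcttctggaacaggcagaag
Lama4, chr10:38653281-38653400, plus strand: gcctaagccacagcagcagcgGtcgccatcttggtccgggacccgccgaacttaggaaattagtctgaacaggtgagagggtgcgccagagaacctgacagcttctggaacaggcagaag
Col22a1, chr15:71925261-71925380, minus strand: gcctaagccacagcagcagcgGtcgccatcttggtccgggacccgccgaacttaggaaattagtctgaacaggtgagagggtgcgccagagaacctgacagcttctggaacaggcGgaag
Itgb1, chr8:131337390-131337509, plus strand: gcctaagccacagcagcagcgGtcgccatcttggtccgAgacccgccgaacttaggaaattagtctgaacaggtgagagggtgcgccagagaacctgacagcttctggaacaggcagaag
Mmp16, chr4:17144409-17144528, plus strand: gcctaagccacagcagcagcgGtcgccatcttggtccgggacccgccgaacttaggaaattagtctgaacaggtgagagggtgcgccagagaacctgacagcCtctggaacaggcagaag
These stretches were 98.3% to 99.2% identical to that of Itgbl1, with 1 or 2 edits. A second sequence of this kind was shared by peaks of Lama2, Col1a2 and Adamts15, whose 120-base stretches were identical, and by Itgb3, where 2 bases in capitals were not.
Lama2, chr10:27541751-27541870, plus strand: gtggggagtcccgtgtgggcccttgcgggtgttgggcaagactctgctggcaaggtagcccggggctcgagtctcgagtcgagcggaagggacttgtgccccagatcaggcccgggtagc
Itgb3, chr11:104516614-104516733, plus strand: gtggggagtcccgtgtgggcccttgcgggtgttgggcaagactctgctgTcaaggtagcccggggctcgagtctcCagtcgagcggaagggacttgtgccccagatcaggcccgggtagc

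Assigned peaks were counted per gene first. Of the 140 protein-coding genes that meet the symbol rule in RefSeq, 70 had at least 1 peak (50.0%, interval 41.8 to 58.2%), beside 37.5% of all 21900 protein-coding genes. For 40 genes a peak was found within 1 kb of the TSS (28.6%, 21.7 to 36.6%), beside 23.2% of all genes. The share with a peak at any distance lay above that of all genes by more than its interval, whereas the share with a peak near the TSS did not. At single-copy sequence alone the numbers were 46 genes (32.9%, 25.6 to 41.0%) beside 27.6% of all genes, and for the other 24 genes every assigned peak lay on multi-copy sequence.

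The classes were compared by the same counts. At any distance a peak was assigned to 8 of 11 laminin genes (72.7%, 43.4 to 90.3%), 15 of 24 Adamts and Adamts-like genes (62.5%, 42.7 to 78.8%), 14 of 27 integrin genes (51.9%, 34.0 to 69.3%), 22 of 44 collagen genes (50.0%, 35.8 to 64.2%), 2 of 6 fibulin and fibrillin genes (33.3%, 9.68 to 70.0%) and 7 of 23 Mmp genes (30.4%, 15.6 to 50.9%). Laminin and Adamts genes stood highest and Mmp genes lowest, but all 6 intervals overlapped. Within 1 kb of the TSS the order was 45.5% of laminin, 37.0% of integrin, 33.3% of Adamts, 33.3% of fibulin and fibrillin, 21.7% of Mmp and 20.5% of collagen genes, again with overlapping intervals. Collagens, the largest class, had the widest gap in gene numbers, with 22 genes at any distance and 9 near the TSS. As shares, the gap was similar in collagens (50.0 and 20.5%), Adamts (62.5 and 33.3%) and laminins (72.7 and 45.5%). The shares of all protein-coding genes were 37.5 and 23.2%.

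**Figure D1:**
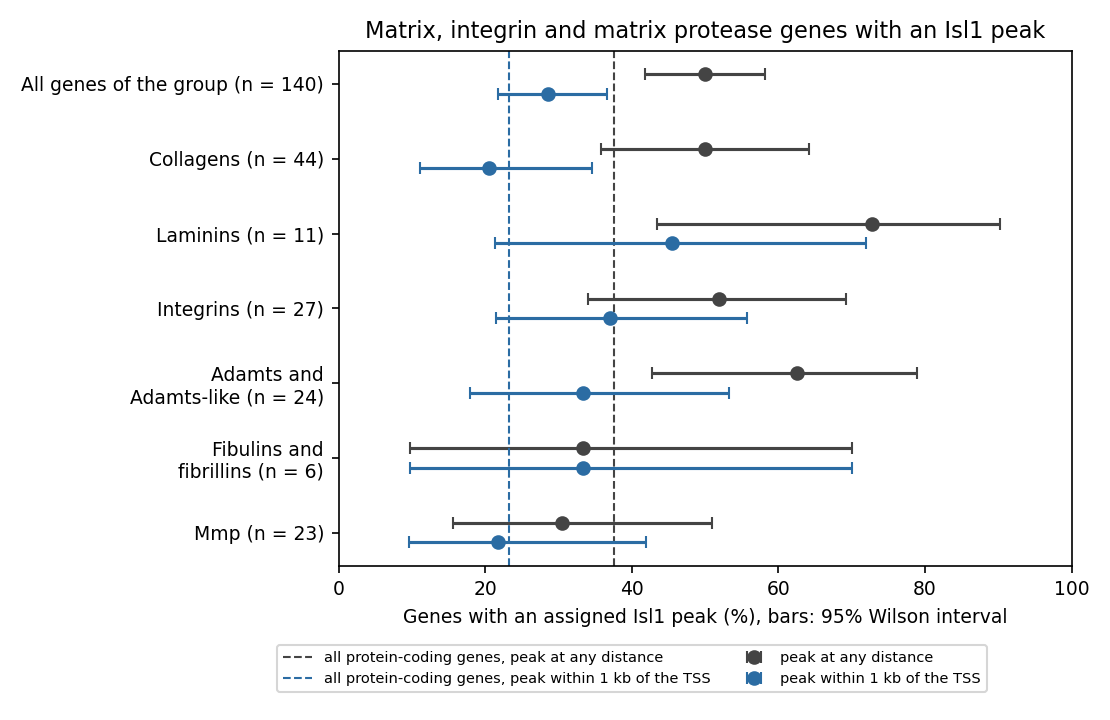
Percentage of protein-coding genes with an assigned Isl1 peak (horizontal axis) in the whole group of 140 genes and in each class (rows), for peaks at any distance (dark points) and within 1 kb of the TSS (blue points), with 95% Wilson intervals as bars and all 21900 protein-coding genes as dashed lines. The class intervals overlap one another, and laminin genes have the highest points, at 72.7% and 45.5%.

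Peaks rather than genes were counted next, by distance and by copy number. Of the 107 peaks, 41 lay within 1 kb of the assigned TSS (38.3%, 29.7 to 47.8%; 38.5% of all peaks), 13 between 1 and 10 kb, and 53 more than 10 kb away (49.5%, 40.2 to 58.9%; 51.1% of all peaks). A peak was called multi-copy when the 31-base words of its central 200 bp occurred a median of at least 2 times in the genome, which held for 55 of 107 (51.4%, 42.1 to 60.7%; 46.5% of all peaks). All 3 of these shares of the whole list lay inside the group's intervals. Copy number went with distance, since 1 of 41 peaks within 1 kb was multi-copy (2.44%, beside 2.62% of all peaks there) against 48 of 53 beyond 10 kb (90.6%, 79.8 to 95.9%; 81.2% of all peaks there). Reads from repeated sequence can be placed at several positions, and how far this set the distal peaks was not tested.

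Peaks next to the distance limits were those of 4 genes. The Adamtsl5 peak at 737 bp was the last one inside 1 kb and the Col27a1 peak at 1240 bp the first one outside, while Lamc3 at 9435 bp and Col8a2 at 11987 bp lay to either side of 10 kb. Of the 41 peaks within 1 kb, 37 covered the TSS (90.24%, 77.45 to 96.14%, beside 93.94% of all such peaks). The midpoint of 34 lay downstream of the TSS (82.9%, 68.7 to 91.5%, beside 80.9% of all such peaks). The midpoint fell in a UTR for 19, in a coding exon for 13, in an intron for 3, in a noncoding exon for 1 and outside annotated genes for 5. Of the 53 distal peaks, 25 had an intronic midpoint, 27 an intergenic one and 1 a coding one, and 24 were over 100 kb from the TSS.

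**Figure D2:**
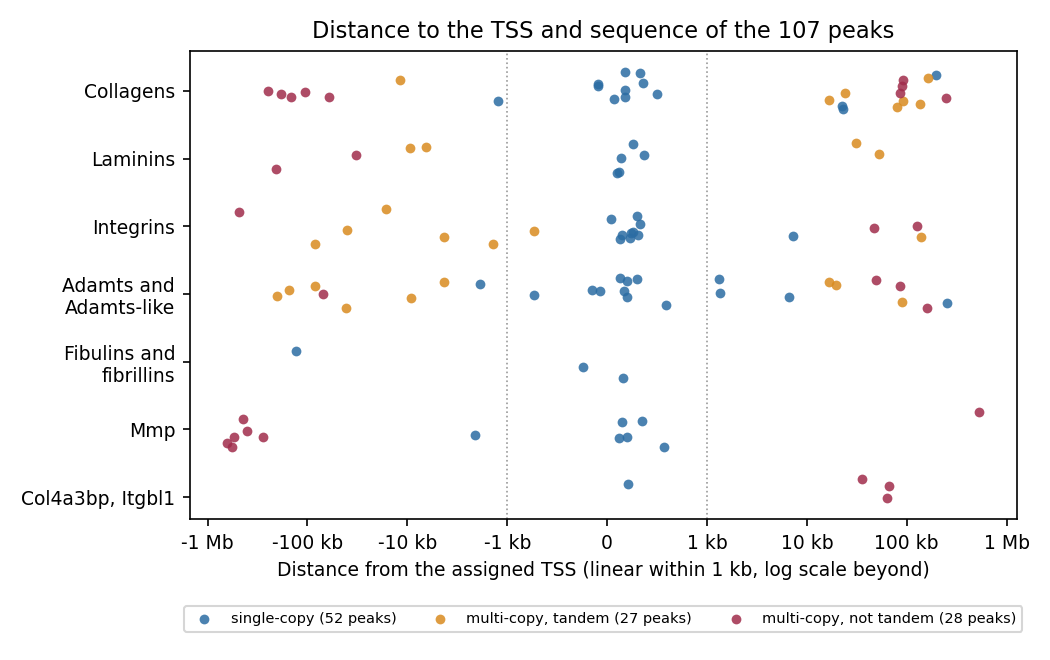
Signed distance of each of the 107 peaks from its assigned TSS (horizontal axis, linear within 1 kb and logarithmic beyond, downstream to the right) by class (rows, with random vertical jitter), coloured by the sequence of the peak centre as single-copy, multi-copy tandem or multi-copy not tandem. Nearly all peaks between the dotted lines at 1 kb are single-copy, with 1 tandem exception at Itga1, and 48 of 53 peaks beyond 10 kb are multi-copy.

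In what follows, positions are in mm9 as deposited, distances are from the assigned TSS, and copies are the median of the 31-base words. Among the matrix proteins, fibrillar collagens had a peak in 7 of 11 genes (63.6%, 35.4 to 84.8%), beside 37.5% of all protein-coding genes. In 3 of them it lay within 1 kb of the TSS (27.3%, 9.75 to 56.6%), beside 23.2% of all genes. Both intervals included the share of all genes. Col5a1, a minor fibrillar collagen that starts and limits fibril assembly, had a peak at chr2:27741420-27742824 (1404 bp wide, 177 bp downstream). Col2a1, the main fibrillar collagen of cartilage, had one at chr15:97834577-97835603 (1026 bp wide, 65 bp downstream). Col27a1, also a cartilage collagen, had a peak at chr4:62876224-62877332 (1108 bp wide, 332 bp downstream) and a neighbour at chr4:62874829-62875584 (755 bp wide, 1240 bp upstream), with 640 bp between them. All 4 of these peaks were single-copy. The remaining fibrillar genes with a peak, Col1a2, Col3a1, Col5a2 and Col11a1, carried only distal multi-copy peaks. Col3a1, a major collagen of vessel walls, had a pair of them, at chr1:45221976-45223315 (1339 bp wide, 145738 bp upstream, median 512 copies) and at chr1:45261579-45262983 (1404 bp wide, 106102 bp upstream, median 2874 copies). The peak of Col1a2, a chain of the most abundant collagen, was 183546 bp upstream at a median of 3099.5 copies. Genes for Col1a1, Col5a3, Col11a2 and Col24a1 had no assigned peak.

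Fibril-associated (FACIT) collagens, which decorate the surface of fibrils, had a peak in 5 of 9 genes (55.6%, 26.7 to 81.1%). The interval included the 37.5% of all protein-coding genes. Those of Col12a1 at chr9:79565998-79566702 (704 bp wide, 179 bp downstream) and Col16a1 at chr4:129724620-129725370 (750 bp wide, 89 bp upstream) lay at the TSS on single-copy sequence. Col12a1 had a further single-copy peak at chr9:79543447-79543794 (347 bp wide, 22909 bp downstream). For Col9a1 the 2 assigned peaks, at chr1:24337990-24338909 (919 bp wide, 136407 bp downstream, median 98 copies) and at chr1:24366423-24366972 (549 bp wide, 164655 bp downstream, median 3021.5 copies), were in introns of its neighbour Col19a1, itself a collagen gene without an assigned peak. Col14a1 and Col22a1 carried 1 multi-copy peak each, more than 60 kb from the TSS.

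The basement membrane collagens were split. The peak of Col4a2 at chr8:11312109-11313325 (1216 bp wide, 88 bp upstream) was single-copy and lay at the start of a divergent gene pair, since Col4a1 runs from there on the other strand. The annotated transcripts of the pair overlap by 22 bp, and the peak midpoint was 109 bp inside Col4a1, in its UTR, and 88 bp before the start of Col4a2. The list names Col4a2 alone, so Col4a1 counts here as a gene without a peak although both chains, which assemble into one trimer, share this region. The paired genes Col4a5 and Col4a6 on the X chromosome had distal peaks only. Col4a5 had them at chrX:137995532-137996142 (610 bp wide, 85875 bp downstream, median 1930 copies), and at chrX:138001469-138003541 (2072 bp wide, 92543 bp downstream, median 468.5 copies), whereas the Col4a6 peak at chrX:137710929-137711559 (630 bp wide, 197375 bp downstream) was single-copy. Col4a3 and Col4a4 had none.

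Both multiplexins, basement membrane collagens that carry sugar chains, had a peak at an intronic position near the TSS, Col15a1 at chr4:47220723-47221758 (1035 bp wide, 356 bp downstream) and Col18a1, from which endostatin is cut, at chr10:76628071-76629487 (1416 bp wide, 496 bp downstream). Col18a1 had a tandem peak of a median of 2 copies in addition, at chr10:76612130-76612884 (754 bp wide, 16768 bp downstream). Among the transmembrane collagens, Col23a1 had a promoter peak at chr11:51103110-51104088 (978 bp wide, 177 bp downstream) and a tandem peak at chr11:51193879-51194480 (601 bp wide, 90757 bp downstream, median 3 copies), and Col17a1, the collagen of epithelial hemidesmosomes, had a single-copy peak in a coding exon 22606 bp downstream of its TSS. Peaks of the short-chain collagens Col8a1 and Col8a2 and of Col26a1 were distal and multi-copy. None of the 6 collagen VI genes, whose products form beaded microfibrils, had an assigned peak (0 of 6, interval up to 39.0%, which includes the 37.5% of all protein-coding genes), although a peak with a median of 101 copies in an intron of Col6a6 was assigned to Pik3r4.

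Laminin genes were split by chain. Among the gamma chains, Lamc1, the gamma chain of most laminins, had a single-copy peak at the TSS at chr1:155179176-155180412 (1236 bp wide, 122 bp downstream), and Lamc3 had one at chr2:31742499-31743382 (883 bp wide, 139 bp downstream). All 5 alpha chain genes had a peak, and 2 had one near the TSS. Those were Lama1, the alpha chain of the first embryonic basement membranes, at chr17:68046261-68047155 (894 bp wide, 103 bp downstream), and Lama5, which replaces it widely later, at chr2:179959571-179961040 (1469 bp wide, 259 bp downstream). None of the 3 beta chain genes had an assigned peak (0 of 3, interval up to 56.2%), beside 37.5% of all protein-coding genes. With 3 genes this interval includes the value of all genes.

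Multi-copy peaks accompanied several of the laminin promoter peaks. Lama1 had one in an intron at chr17:68099375-68100056 (681 bp wide, 53110 bp downstream, median 102 copies). Lama5 had one at chr2:179966679-179967319 (640 bp wide, 6435 bp upstream, median 35.5 copies), and Lamc3 one at chr2:31733106-31733627 (521 bp wide, 9435 bp upstream, median 18598 copies). For Lama2, Lama3 and Lama4 the only peak was distal and multi-copy. That of Lama2, the alpha chain of muscle basement membranes, spanned chr10:27537906-27545915 and was the widest of the 107 at 8009 bp and rank 4 among all 14082 peaks. It lay 205162 bp upstream of the TSS at a median of 2422 copies.

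Fibulins and fibrillins, components of elastic fibres and microfibrils, had 3 peaks, all single-copy. They lay in 2 of 6 genes (33.3%, 9.68 to 70.0%), beside 37.5% of all protein-coding genes. Fbln1, a fibulin of the developing heart valves and outflow tract, had a peak at chr15:85036121-85037071 (950 bp wide, 158 bp downstream). Fbn2, the fibrillin of fetal microfibrils, had a peak at chr18:58368989-58370656 (1667 bp wide, 242 bp upstream), which was wide for the group (rank 1149 of all), and another at chr18:58499741-58500331 (590 bp wide, 130456 bp upstream). Fbn1, Fbln2, Fbln5 and Fbln7 had none.

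For the receptors, 9 of 18 alpha subunit genes and 5 of 9 beta subunit genes had a peak, and 8 and 2 of them had one within 1 kb. At any distance both intervals included the 37.5% of all protein-coding genes. Within 1 kb the share of all genes was 23.2%. The interval of the beta subunits included it (22.2%, 6.32 to 54.7%). That of the alpha subunits lay just above it (44.4%, 24.6 to 66.3%). Itgb1, the beta subunit shared by most matrix receptors, had 3 peaks. One lay at the TSS on single-copy sequence at chr8:131209273-131210304 (1031 bp wide, 234 bp downstream), and the others were multi-copy, at chr8:131205000-131205450 (450 bp wide, 4329 bp upstream, median 25500 copies), and at chr8:131336913-131337912 (999 bp wide, 127858 bp downstream, median 1649 copies). The TSS of Itgb5, a vitronectin-binding beta subunit, was covered by a single-copy peak at chr16:33829477-33830691 (1214 bp wide, 333 bp downstream). Itgb3, Itgb4 and Itgb7 had peaks elsewhere. Those of Itgb3, the beta subunit of the platelet fibrinogen receptor, lay at chr11:104516223-104517007 (784 bp wide, 47301 bp downstream, median 937 copies), and at chr11:104608828-104609885 (1057 bp wide, 140042 bp downstream, median 42 copies), the latter in an intron of Gm11639. The Itgb7 peak was single-copy in a coding exon 7264 bp downstream of the TSS.

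Single-copy promoter peaks were found at 7 alpha subunit genes. Among the fibronectin and RGD receptors these were Itga5, the main fibronectin receptor subunit, at chr15:103196466-103197351 (885 bp wide, 314 bp downstream), Itgav at chr2:83564303-83565292 (989 bp wide, 243 bp downstream) and Itga8 at chr2:12223165-12223726 (561 bp wide, 126 bp downstream). The laminin receptor subunits Itga3 and Itga6 had peaks at chr11:94937274-94938486 (1212 bp wide, 148 bp downstream) and at chr2:71624654-71625942 (1288 bp wide, 302 bp downstream). Itga9, which binds tenascin among others, had one at chr9:118515452-118516726 (1274 bp wide, 262 bp downstream). Itga11, a receptor for fibrillar collagen, had one at chr9:62525407-62525999 (592 bp wide, 41 bp downstream) and a tandem peak at chr9:62485245-62485586 (341 bp wide, 40247 bp upstream, median 85 copies). The collagen receptor Itga1 differed in that its near peak was multi-copy, at chr13:115892655-115893160 (505 bp wide, 735 bp upstream, median 1098 copies), with a neighbour 59 bp away at chr13:115893219-115893871 (652 bp wide, 1373 bp upstream, median 1185.5 copies), and a last peak at chr13:116381030-116382016 (986 bp wide, 489351 bp upstream, median 391 copies). Itga4, a fibronectin and VCAM1 receptor subunit, had only a peak 84976 bp upstream at a median of 26345 copies.

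All of these alpha subunits pair with beta 1. Of the 12 alpha subunits that do, 9 had a peak (75%, 46.8 to 91.1%) and 8 had one within 1 kb (66.7%, 39.1 to 86.2%), whereas of the 6 others, which are mainly leukocyte and platelet subunits, 0 had one (interval up to 39.0%). Of all protein-coding genes 37.5% had a peak and 23.2% had one within 1 kb, so that the intervals of the beta 1 partners lay above these shares and that of the others included the value at any distance. This grouping was chosen after the values were seen, so it is a description. Itga2, Itga7 and Itga10 were the beta 1 partners without an assigned peak, and a multi-copy peak in an intron of Itga2 was assigned to Mocs2.

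Of the proteases, Adamts enzymes had a peak in 13 of 19 genes (68.4%, 46.0 to 84.6%), beside 37.5% of all protein-coding genes. For 6 a peak lay within 1 kb of the TSS (31.6%, 15.4 to 54.0%), beside 23.2% of all genes. The interval at any distance lay above the share of all genes, and the interval within 1 kb included it. Adamts2 and Adamts14, which cleave the amino-terminal propeptide of fibrillar procollagens, had single-copy peaks at chr11:50415147-50416357 (1210 bp wide, 165 bp downstream) and at chr10:60735535-60736590 (1055 bp wide, 124 bp downstream). Adamts2 had a second single-copy peak 152 bp farther on, at chr11:50416509-50417337 (828 bp wide, 1336 bp downstream). Adamts20, a versican-cleaving enzyme, had one at chr15:94234110-94235061 (951 bp wide, 196 bp downstream) with multi-copy peaks at chr15:94275545-94276395 (850 bp wide, 41189 bp upstream, median 2 copies), and at chr15:94214589-94215551 (962 bp wide, 19711 bp downstream, median 396.5 copies). The other promoter peaks were those of Adamts8 at chr9:30749855-30751042 (1187 bp wide, 301 bp downstream), Adamts17 at chr7:73984738-73985691 (953 bp wide, 593 bp downstream) and Adamts18 at chr8:116372038-116373036 (998 bp wide, 202 bp downstream). All 6 of these promoter peaks were single-copy.

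Several Adamts genes carried more distant peaks. Adamts8 had a tandem peak at chr9:30745542-30746184 (642 bp wide, 4284 bp upstream, median 1588.5 copies), and Adamts18 one at chr8:116455944-116456523 (579 bp wide, 83494 bp upstream, median 3 copies). Adamts5, a major aggrecan- and versican-cleaving enzyme, had 3 tandem peaks upstream and none near its TSS. They lay at chr16:85910250-85910836 (586 bp wide, 9173 bp upstream, median 2221 copies), at chr16:86053008-86053452 (444 bp wide, 151860 bp upstream, median 209 copies), and at chr16:86104787-86105294 (507 bp wide, 203670 bp upstream, median 69 copies). Adamts15 had its peaks at chr9:30679217-30680287 (1070 bp wide, 48783 bp downstream, median 3706 copies), and at chr9:30638029-30638818 (789 bp wide, 90112 bp downstream, median 48 copies). For Adamts19 a single-copy peak lay at chr18:58997031-58997619 (588 bp wide, 1308 bp downstream), just outside 1 kb, and a multi-copy one at chr18:59081951-59082834 (883 bp wide, 86375 bp downstream, median 2203.5 copies). Adamts3, another procollagen propeptide enzyme, had only a multi-copy peak 69988 bp upstream of its TSS, and Adamts1, Adamts4 and Adamts9 had none.

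The Adamts-like proteins, which lack the protease domain, had a peak in 2 of 5 genes (40.0%, 11.8 to 76.9%), beside 37.5% of all protein-coding genes. Adamtsl5 had 3 single-copy peaks, at chr10:79810933-79811587 (654 bp wide, 67 bp upstream), at chr10:79811669-79812192 (523 bp wide, 737 bp upstream), and in a coding exon at chr10:79803796-79805439 (1643 bp wide, 6576 bp downstream). The nearest pair was 82 bp apart. Adamtsl3 had a promoter peak at chr7:89483692-89484406 (714 bp wide, 155 bp upstream) and a tandem one at chr7:89500505-89501256 (751 bp wide, 16676 bp downstream, median 10 copies).

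Matrix metalloproteases had a peak in 7 of 23 genes. Membrane-type enzymes, which are held at the cell surface, accounted for 4 of 6 genes (66.7%, 30 to 90.3%) and the secreted and other enzymes for 3 of 17 (17.6%, 6.19 to 41.0%), with overlapping intervals. The membrane-type genes Mmp15, Mmp17 and Mmp24 had single-copy promoter peaks at chr8:97876028-97877496 (1468 bp wide, 566 bp downstream), at chr5:130089648-130091138 (1490 bp wide, 349 bp downstream) and at chr2:155600667-155601886 (1219 bp wide, 198 bp downstream). Mmp11, a secreted stromelysin, and Mmp28 had them at chr10:75394863-75395398 (535 bp wide, 117 bp downstream) and at chr11:83275932-83276857 (925 bp wide, 148 bp downstream). The Mmp23 peak lay 2102 bp upstream in an intron of Mib2. None of the 10 secreted Mmp genes of the chromosome 9 cluster, among them Mmp3, Mmp8, Mmp12 and Mmp13, had an assigned peak (interval up to 27.8%), beside 37.5% of all protein-coding genes, a grouping also chosen after the values were seen. Genes of a cluster are not independent of one another, so this interval is too narrow and no depletion is read from it. The intervals of the membrane-type and of the secreted and other enzymes both included the 37.5% of all protein-coding genes. Mmp2, Mmp9 and Mmp14, the gelatinases and the membrane-type enzyme that activates Mmp2, had none either.

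Mmp16 had the most peaks in the group. Its 7 peaks were all multi-copy and none lay within 1 kb, and 75 gene names of the list (0.805%) had at least as many. Of these, 6 were upstream, from chr4:17144279-17145343 at 635229 bp upstream to chr4:17498151-17499205 at 281362 bp upstream, and the last was 531630 bp downstream at chr4:18311782-18312689. Between these ends lay chr4:17208846-17209703, chr4:17235759-17237373, chr4:17335828-17337071 and chr4:17377517-17378599. Their medians ranged from 522 to 2949 copies and their widths from 857 to 1614 bp.

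**Figure D3:**
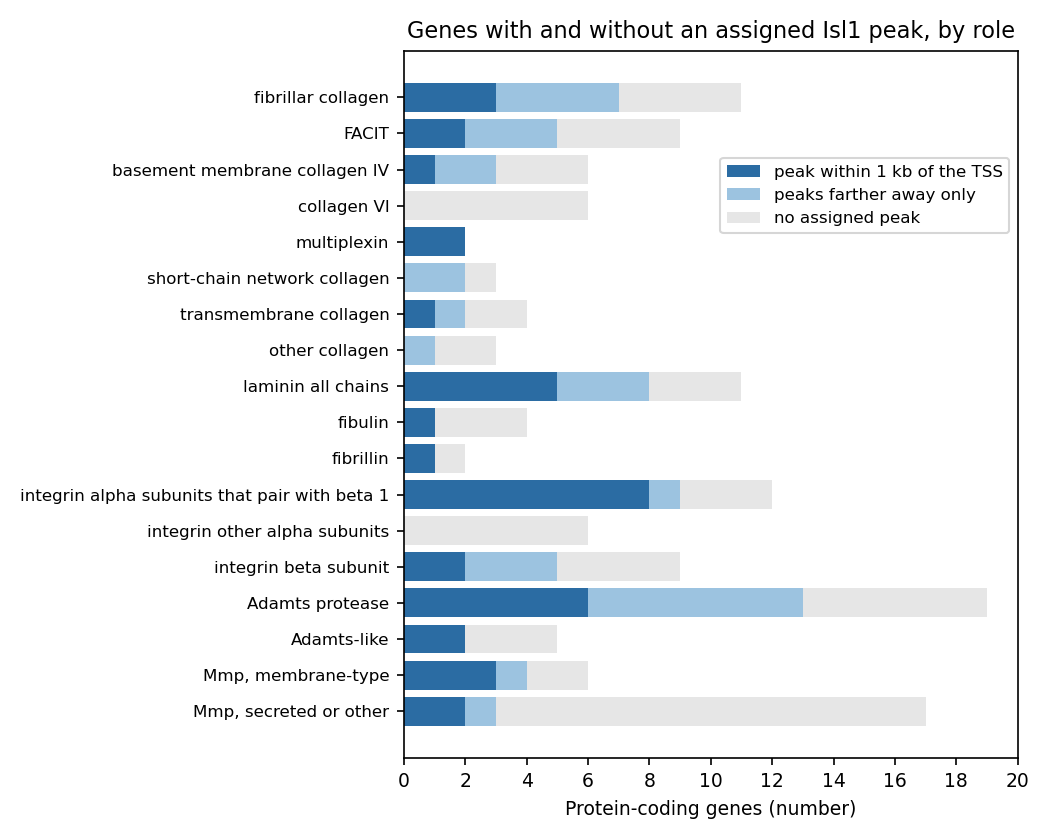
Number of protein-coding genes (horizontal axis) by role (rows), split into those with a peak within 1 kb of the TSS, those with peaks farther away only and those with no assigned peak. Collagen VI and the alpha subunits that do not pair with beta 1 have no assigned peak (0 of 6 each). Their intervals reach up to 39.0% and include the 37.5% of all protein-coding genes. Of the beta 1 partners, 8 of 12 have a peak within 1 kb (66.7%, 39.1 to 86.2%), beside 23.2% of all genes. The split of the alpha subunits was chosen after the values were seen.

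The symbols Col4a3bp and Itgbl1 were the exceptions to the group's name. Col4a3bp, which RefSeq now calls Cert1, had a single-copy promoter peak at chr13:97312249-97313550 (1301 bp wide, 209 bp downstream). Itgbl1 had 3 intronic multi-copy peaks, at chr14:124094254-124095526 (1272 bp wide, 35528 bp downstream, median 996 copies), at chr14:124122120-124123304 (1184 bp wide, 63350 bp downstream, median 1508.5 copies), and at chr14:124124457-124125679 (1222 bp wide, 65706 bp downstream, median 610 copies). Leaving both out kept 68 genes and 103 peaks.

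The multi-copy peaks were then divided by self-match, the highest share of bases in the central 200 bp that are identical to the base 1 to 60 positions before. In the 55 multi-copy peaks this share was either at most 39.0% (28 peaks) or at least 66.0% (27 peaks), and the limit of 50% was placed in this gap after the values were seen. Units longer than 60 bases could not be found in this way, so non-tandem means only that no shorter unit was found. Tandem peaks thus made up 27 of 55 (49.1%, 36.4 to 61.9%), beside 38.3% of all multi-copy peaks. They had a median of 0 CG dinucleotides, with 0 or 1 in 26 of 27, and a median width of 642 bp. The non-tandem peaks had a median of 13 CG dinucleotides, from 4 to 17, and a median width of 1076 bp. All 28 lay more than 10 kb from the TSS, at a median of 136798 bp. In the whole list most such peaks were also distal, with 3747 of 4036 non-tandem multi-copy peaks beyond 10 kb. By class, tandem peaks were 9 of 13 multi-copy peaks in Adamts and Adamts-like genes, 7 of 10 in integrins, 4 of 6 in laminins, 7 of 16 in collagens and 0 of 7 in Mmp genes, where all 7 belong to Mmp16.

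Multi-copy peaks of both kinds resembled one another across classes, and the non-tandem kind is described first. When peaks were linked at 80% identity of a 200-bp centre, 16 peaks of 10 genes formed the largest non-tandem set. It held peaks of collagen, laminin, integrin, Adamts and Mmp genes and a peak of Itgbl1, but none of fibulins or fibrillins. Among them were 6 of the 7 peaks of Mmp16, those of Lama4, Col14a1, Col22a1 and Col8a1, and the downstream multi-copy peak of Itgb1. The 120-base stretch of Itgbl1 printed above was compared with 14 of the others, and the median identity was 97.1%, from 55.8 to 99.2%, the lowest being under the 80% used for linking. A second set joined 8 peaks of 7 genes, among them Lama2, Col1a2, Col3a1, Col11a1 and Itgb3, with matches to the second stretch of 98.3 to 100%. Another set joined Adamts3, Adamts12 and the downstream peak of Mmp16. At the same limit 16 tandem peaks of 13 genes formed a set that held Adamts, collagen, integrin and laminin genes. Peaks of a set are alike in sequence and are not independent observations.

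**Figure D4:**
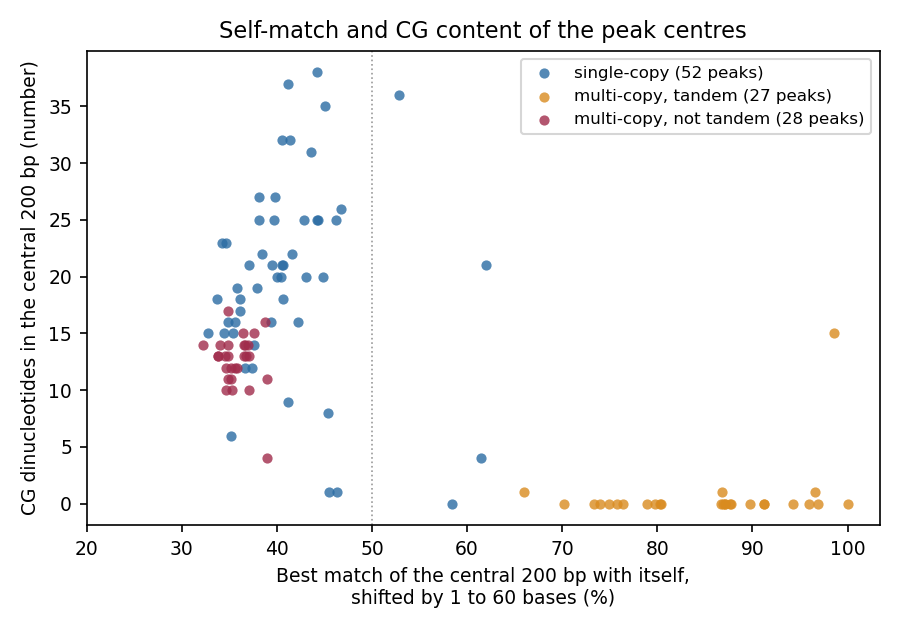
Number of CG dinucleotides (vertical axis) against the best self-match in percent (horizontal axis) of the central 200 bp of each of the 107 peaks, coloured as single-copy, multi-copy tandem or multi-copy not tandem, with a dotted line at 50%. The 27 tandem peaks lie at 66.0% or more and hold 0 or 1 CG dinucleotides except for Col26a1 with 15, while the 28 other multi-copy peaks lie at or under 39.0% with 4 to 17.

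Single-copy peaks away from promoters were few. Beyond 10 kb there were 5, of Adamts6, Col12a1, Col17a1, Col4a6 and Fbn2, and the Adamts6 peak at chr13:105331482-105331985 (503 bp wide, 253818 bp downstream) had a self-match above 50% like that of Col12a1. Single-copy peaks between 1 and 10 kb were those of Adamts16, Adamts19, Adamts2, Adamtsl5, Col27a1, Itgb7 and Mmp23.

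Promoter peaks of the group were then described by composition. Their centres had a median GC content of 73.5% (all 5416 promoter peaks 74.0%) and a median of 21 CG dinucleotides, with quartiles of 17 and 25 (all 25, quartiles of 20 and 29). The GC box letters GGGCGG occurred on either strand in 21 of 41 (51.2%, 36.5 to 65.8%), beside 65.7% of all promoter peaks. CCAAT was present in 5 of 41 (12.2%), beside 8.03% of all. The string match is a description of the letters in this window and not of a factor bound there.

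Peak width was compared between classes as a median with its interquartile range. The median was 925 bp (647 to 1211 bp) in the group and 947 bp (717 to 1243 bp) in the list. By class it was 1064 bp in Mmp, 919 bp in collagen, 894 bp in laminin, 834.5 bp in integrin and 828 bp in Adamts and Adamts-like genes, which all fell inside the interquartile range of the whole list. Promoter peaks were 1026 bp wide (all 1050 bp) and distal peaks 907 bp (all 882 bp). Col4a5 followed Lama2 with 2072 bp, at rank 342 of all peaks.

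The strings CTAATGG and CTAATTG, of the type bound by LIM-homeodomain factors, were sought on both strands of the central 200 bp. They occurred in 3 of 107 peaks (2.80%, 0.958 to 7.92%), beside 0.412% of all peaks, and all 3 were CTAATGG. The peaks were those of Col16a1 at the TSS, of Adamts5 far upstream and of Col4a6 in an intron, and the Col4a5 peak held the string 190 bp from its midpoint. The number rests on 3 peaks. The 61 bases of mm9 around the string, which is in capitals, are printed for those outside a UTR.
Adamts5, chr16:86105090-86105150, plus strand: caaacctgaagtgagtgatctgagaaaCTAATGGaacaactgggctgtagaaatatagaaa
Col4a6, chrX:137711249-137711309, minus strand: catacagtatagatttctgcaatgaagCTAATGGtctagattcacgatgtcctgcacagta
Col4a5, chrX:137995997-137996057, minus strand: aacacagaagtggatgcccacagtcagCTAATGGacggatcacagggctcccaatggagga

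Other matrix genes outside the symbol rule were counted by role. Of 99 such genes, 53 had an assigned peak (53.5%, 43.8 to 63%) and 34 had one within 1 kb (34.3%, 25.7 to 44.1%), beside 37.5% and 23.2% of all protein-coding genes. Both shares lay above those of all genes by more than their intervals, and their intervals overlapped those of the 140 genes that meet the symbol rule. The 99 genes were listed with earlier results of these data known, so these shares are a description. Collagen processing and cross-linking enzymes had a promoter peak in 9 of 17 genes, which were the prolyl hydroxylase subunits P4ha1, P4ha2 and P4ha3, the lysyl hydroxylases Plod2 and Plod3, the lysyl oxidase Lox, the propeptidases Bmp1 and Tll1, and Pcolce2. Among cytoplasmic integrin adaptors this held for 6 of 12, namely Tln1, Fermt2, Lims1, Parva, Ptk2 and Pxn. Elastic fibre genes had it in 5 of 12 (Eln, Efemp2, Emilin2, Ltbp1 and Ltbp4), and basement membrane linkers in 3 of 8 (Hspg2, Agrn and Npnt).

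Among the remaining roles, promoter peaks were found for Adam9, Adam10 and Adam12 among 6 Adam proteases, for Dag1, Ddr1, Sdc1 and Sdc3 among 9 receptors outside the integrins, for Matn2 and Thbs4 among 15 adhesive glycoproteins, for Bcan among 15 proteoglycan and hyaluronan genes and for Reck among 5 metalloprotease inhibitors. Adhesive glycoproteins had a peak at any distance in 4 of 15 genes (26.7%, 10.9 to 52%), with none assigned to Fn1, which encodes fibronectin. Basement membrane linkers had one in 7 of 8 (87.5%, 52.9 to 97.8%), 4 of them at multi-copy sequence alone. The share of all protein-coding genes was 37.5%. At single-copy sequence 3 of the 8 linkers had a peak (interval 13.7 to 69.4%), beside 27.6% of all genes.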

How the data were processed

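Reads from 2 Isl1 ChIP libraries and 1 input were processed by the authors, who per the methods of the study aligned them to mm9 with Bowtie2, removed duplicates with Picard 1.136, called peaks with MACS14 without a fragment model, dropped blacklisted regions, kept areas common to both replicates with bedtools 2.15 and assigned the closest TSS with HOMER. The deposited list holds coordinates and distances in bp, with no count, score or signal. Whether starts count from 0 or 1 is not given in the sources used here, so starts are uncertain by 1 bp.

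Python 3.11.15 (pandas 2.3.3, pysam 0.24.0, edlib 1.3.9.post1) was used. Midpoints were annotated with GENCODE vM1 on NCBIM37, which is the mm9 sequence. RefSeq (GRCm38.p6) gave gene names only and matched all 70 gene names of the group, whereas 16 names of the list were unmatched. Copy number and self-match were tested on simulated sequence. No test between groups was possible with 1 combined list, so shares carry Wilson intervals. Any gene of the group could be named, those with a peak within 1 kb or with 2 or more peaks are given with positions, and genes without a peak are counted by class with some named. A few items it would name were left out. The members, classes and related gene list were chosen with earlier results of these data known. Alternatives were a minimum width, merging, other distance limits, single-copy peaks, longer words and another annotation.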

Additional observations from a re-analysis of the deposited data

How the results depend on the processing

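Of 40 values of the 6 results for the whole group under alternatives, 32 stayed within their interval or within 1.5 times and 8 moved, and of 174 class values 149 stayed and 25 moved. The number of genes fell from 70 to 46 with single-copy peaks alone, to 45 with peaks within 10 kb, to 40 with peaks within 1 kb and to 26 with at least 2 peaks. With single-copy peaks alone the share within 1 kb was 76.9% (70.0% of the whole list) and that beyond 10 kb 9.62% (18% of the whole list). A distal limit of 50 kb gave 35.5%. Words of 75 bases gave a multi-copy share of 34.6% (28.4% of the whole list). Minimum width, merging and the names outside the classes left the 6 results in place, as did the annotation of the TSS for both shares by distance, the results it was run for. No peak of the group had a repeated line, so counting every line could not move any value. Its values are among those that stayed. Leaving out a replicate could not be done because the list combines both. No paired analysis was possible because the replicates have no values of their own. Depth is unknown. The authors kept areas common to both replicates, so peaks of 1 replicate are not seen here. Weak peaks under the limit of peak calling are not seen either, and assignment to the closest TSS can pass over a gene that holds the peak.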

Other observations

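Peaks inside a gene of the group were not always assigned to it. Of the 107 peaks, 7 had their midpoint only in the body of another protein-coding gene, namely Col4a1 for Col4a2, Trappc3 for Col8a2, Col19a1 for both peaks of Col9a1, Gm11639 for Itgb3, Sap30bp for Itgb4 and Mib2 for Mmp23. In turn, 4 genes of the group without an assigned peak held one in their body, Col19a1 with 2 and Col4a1, Col6a6 and Itga2 with 1 each. The Itga2 peak had a median of 27.5 copies and was assigned to Mocs2 at 26808 bp, and the Col6a6 peak was assigned to Pik3r4 at 63802 bp.

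The strings CACGTG and TATAAA were found in 0 of the 41 promoter peak centres (upper limit of the interval 8.57%), beside 3.34% and 0.609% of all promoter peaks.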
